A study of Mus musculus with 8 samples.

Results

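The kidney reclaims glucose, phosphate and small organic acids from the filtrate in the proximal tubule, and 9 genes for the carriers that do this are described here: Slc5a2, Slc2a2, Slc5a1, Slc5a12, Slc5a8, Slc34a1, Slc34a3, Slc20a1 and Slc20a2. They were chosen by name, as the sodium-glucose, facilitative glucose and phosphate transporters of the proximal tubule, out of 37583 genes listed per library. All 9 were found, and all 9 passed the filter on low counts that left 14433 genes for testing. Slc5a12 and Slc5a8 belong to the sodium-glucose cotransporter family by sequence, but their proteins carry lactate and other monocarboxylates.

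The measurements are RNA-seq counts from 8 whole kidneys of mice. The labels give 4 libraries as knockout (KO), from mice with a Six2-driven Cre, 2 floxed alleles of Tfap2a and 1 floxed and 1 wild-type allele of Tfap2b, and 4 as wildtype (WT), from control littermates whose alleles are not listed further. The genes targeted encode the transcription factors AP-2 alpha and AP-2 beta, and the Six2 promoter is active in nephron progenitors, so recombination reaches the nephron epithelium, the proximal tubule included, and not the vessels, the interstitium or the collecting duct. Age, sex and litter are not labelled, and the labels do not say that every kidney came from another animal, so p-values set differences against a spread between libraries that may be technical.

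Proximal reabsorption is arranged in series. In the early part, the high-capacity cotransporter SGLT2 (Slc5a2) takes glucose in across the brush border and GLUT2 (Slc2a2) lets it out towards the blood, while in the late, straight part the high-affinity SGLT1 (Slc5a1) collects what is left. Lactate follows the same plan, with the low-affinity carrier SMCT2 (Slc5a12) early and the high-affinity SMCT1 (Slc5a8) late. Phosphate enters mainly through the brush border cotransporters NaPi-IIa (Slc34a1) and NaPi-IIc (Slc34a3), which are strongest early and are withdrawn in response to parathyroid hormone and FGF23, whereas PiT-1 (Slc20a1) and PiT-2 (Slc20a2) are phosphate carriers of most tissues.

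Gene counts totalled 13871861 to 16629301 per library. In CPM, the counts of a gene scaled by the library's TMM-adjusted total, neither of the genes targeted was reduced under the knockout label. Tfap2a was at 5.05 ± 0.99 CPM in knockout-labelled libraries and 4.22 ± 1.08 CPM in wildtype-labelled ones (SD, n = 4 each; log2 difference 0.26, SE 0.24, edgeR adjusted p = 0.957), and Tfap2b at 80.0 ± 20.3 and 78.3 ± 20.5 CPM (log2 difference 0.032, SE 0.22, edgeR adjusted p = 0.994). The counts pool all exons of a gene, so a deleted part is not resolved, and knockout and wildtype below are the labels' words. Some libraries stood apart in both groups. The adrenal gene Star reached 349.6 CPM in knockout replicate 2 and 335 CPM in wildtype replicate 1 and at most 6.15 CPM elsewhere, and the heat-shock gene Hspa1b 363 and 175 CPM in knockout replicates 4 and 2 and at most 41.4 CPM elsewhere. The 4 heat-shock genes read together came to 75.9 to 714 CPM in knockout-labelled libraries and 61.6 to 117 CPM in wildtype-labelled ones. The clock gene Arntl was at 24.3 CPM in knockout replicate 4 and 20.4 CPM in wildtype replicate 4, against at most 6.76 CPM in the other libraries. Knockout replicate 1 was high in red cell transcripts, with Hba-a1 at 1241 CPM and 26.3 to 259 CPM elsewhere. The 4 adipose markers summed to 689 and 678 CPM in knockout replicates 1 and 2 and 686 CPM in wildtype replicate 1, and to 194 to 487 CPM elsewhere. The part of these transcripts in the results was not tested. The Y-linked Ddx3y was at 72.1 to 92.3 CPM and Xist at no more than 1.00 CPM in all 8 libraries.

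The window before the RefSeq start of Slc34a3 is shown. It alone, among the member windows in the RefSeq promoter table, held a match to the motif of AP-2, the family of the targeted factors. The table has windows for 6 of the 9 members (Slc5a1, Slc2a2, Slc5a8, Slc34a1, Slc34a3 and Slc20a1, the last with 2 starts), and not for Slc5a2, Slc5a12 or Slc20a2. The 250 bases before each RefSeq start on GRCm38.p6 were searched on both strands for the AP-2 motif GCCNNNGGC, which reads the same on both. Capitals mark the match in the window of Slc34a3 (chr2:25234235-25234484, minus strand), printed 5′ to 3′.
Slc34a3: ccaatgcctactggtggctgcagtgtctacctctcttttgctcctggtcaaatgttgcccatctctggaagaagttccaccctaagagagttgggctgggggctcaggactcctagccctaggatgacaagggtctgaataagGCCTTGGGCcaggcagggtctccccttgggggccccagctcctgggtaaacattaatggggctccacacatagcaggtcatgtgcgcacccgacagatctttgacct
Slc34a3 held 1 match to the AP-2 motif, beginning 107 bases before the RefSeq start. In the GENCODE M21 annotation the gene begins further upstream, at 25234364 on the minus strand. By that annotation the match lies inside the gene. Of all 32851 windows in the table, 13.7% held the AP-2 motif, and of the 7 member windows 1 held it. A match of letters is a description of the window and does not show binding.

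NaPi-IIa had by far the most abundant transcript of the 9 in these kidneys. The 6 markers of the whole proximal tubule were all detected, with Lrp2, for the endocytic receptor megalin, at 2403 to 3321 CPM in knockout-labelled libraries and 2499 to 3715 CPM in wildtype-labelled ones. In a bulk sample, fewer cells of a type and less RNA per cell cannot be told apart, so each level mixes both. Divided by exon length, Slc34a1 was at 896 ± 218 CPM per kb in knockout-labelled libraries and 919 ± 154 CPM per kb in wildtype-labelled ones (SD, n = 4 each), 9.80 times the next gene over all 8 libraries, and the 2 ranges were far apart. Slc5a2 followed at 96.4 ± 25.6 and 88.8 ± 22.5 CPM per kb. Slc5a12 stood at 72.1 ± 28.5 and 51.2 ± 8.35 CPM per kb, and Slc5a8 at 36.7 ± 18.01 and 52.2 ± 17.2 CPM per kb, in knockout-labelled and wildtype-labelled libraries. These neighbours were not cleanly ordered, since Slc5a12 was above Slc5a8 in 5 of 8 libraries only.

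The late glucose carrier and the early exit carrier came next and close together. Slc5a1 was at 23.1 ± 2.54 CPM per kb in knockout-labelled libraries and 21.9 ± 3.65 CPM per kb in wildtype-labelled ones, and Slc2a2 at 21.3 ± 3.04 and 20.2 ± 2.18 CPM per kb. Their ranges overlapped, although Slc5a1 was the higher of the pair in 7 of 8 libraries. Slc34a3, at 17.6 ± 2.72 and 15.2 ± 4.67 CPM per kb, lay just below Slc2a2 in all 8 libraries. The ubiquitous carriers closed the order, with Slc20a2 at 9.44 ± 0.59 and 11.2 ± 0.80 CPM per kb and Slc20a1 at 8.25 ± 1.07 and 8.11 ± 0.51 CPM per kb, and Slc20a2 was above Slc20a1 in all 8 libraries. In each of these adjacent pairs below Slc34a1 the ranges over 8 libraries overlapped.

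**Figure D1:**
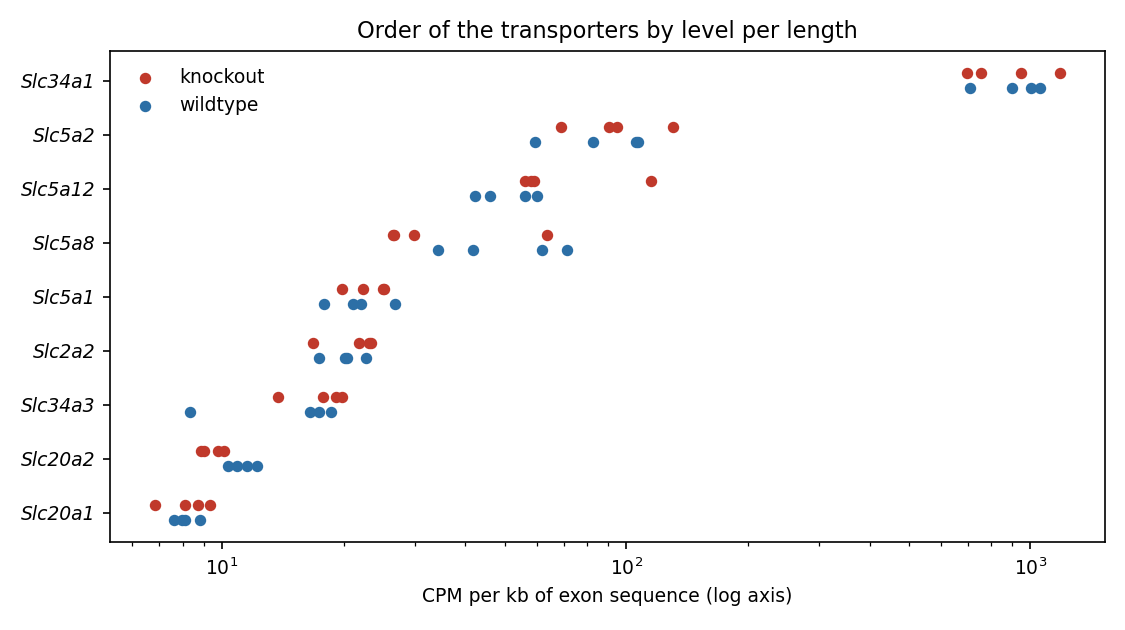
Level of each transporter gene in CPM per kb of exon sequence (log axis), one point per library, with the libraries labelled knockout above those labelled wildtype. Slc34a1 is set apart at the right, and each of the other 8 genes overlaps in range with its neighbour.

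In all 8 libraries, Slc34a1 supplied most transcripts of the 4 phosphate carriers, and the early Slc5a2 most of the SGLT2 and SGLT1 transcripts. The early lactate carrier supplied most transcripts of its pair in some libraries only. Per length, Slc34a1 supplied 95.4% to 96.9% of the transcripts of the 4 phosphate carriers in knockout-labelled libraries and 95.9% to 96.8% in wildtype-labelled ones, and Slc34a3 1.63% to 2.43% and 1.13% to 1.98%. Slc5a2 supplied 75.6% to 83.9% and 75.6% to 83.6% of the SGLT2 and SGLT1 transcripts together. Slc5a12 supplied 48.2% to 79.4% of the SMCT2 and SMCT1 transcripts in knockout-labelled libraries, against 44.1% to 57.4% in wildtype-labelled ones. The early lactate carrier was below 50% of its pair in 1 library labelled knockout and 2 labelled wildtype.

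None of the 9 transporters passed the test between the groups. In edgeR's quasi-likelihood fit across 14433 genes, 0 genes were called at an adjusted p under 0.05 (percent called 0), as were 0 of the 9 members, whose adjusted p ran from 0.957 to 0.990. Differences are log2, knockout minus wildtype by label. They were positive for 6 members and negative for 3, with a median of 0.073, beside 0.0061 over all tested genes. The 95% interval was no wider than 1 log2 unit in either direction from 0 for 7 members, and those of Slc5a12 and Slc5a8 reached further. At an unadjusted p under 0.05 there was 1 member, Slc20a2, while 4% of all tested genes (578 genes) had an unadjusted p under that value. By limma-voom 0 genes were called, with 586 at an unadjusted p under 0.05, and DESeq2 called 4 genes (0.0163% of those tested, with 715 at an unadjusted p under 0.05), none of them a member.

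**Figure D2:**
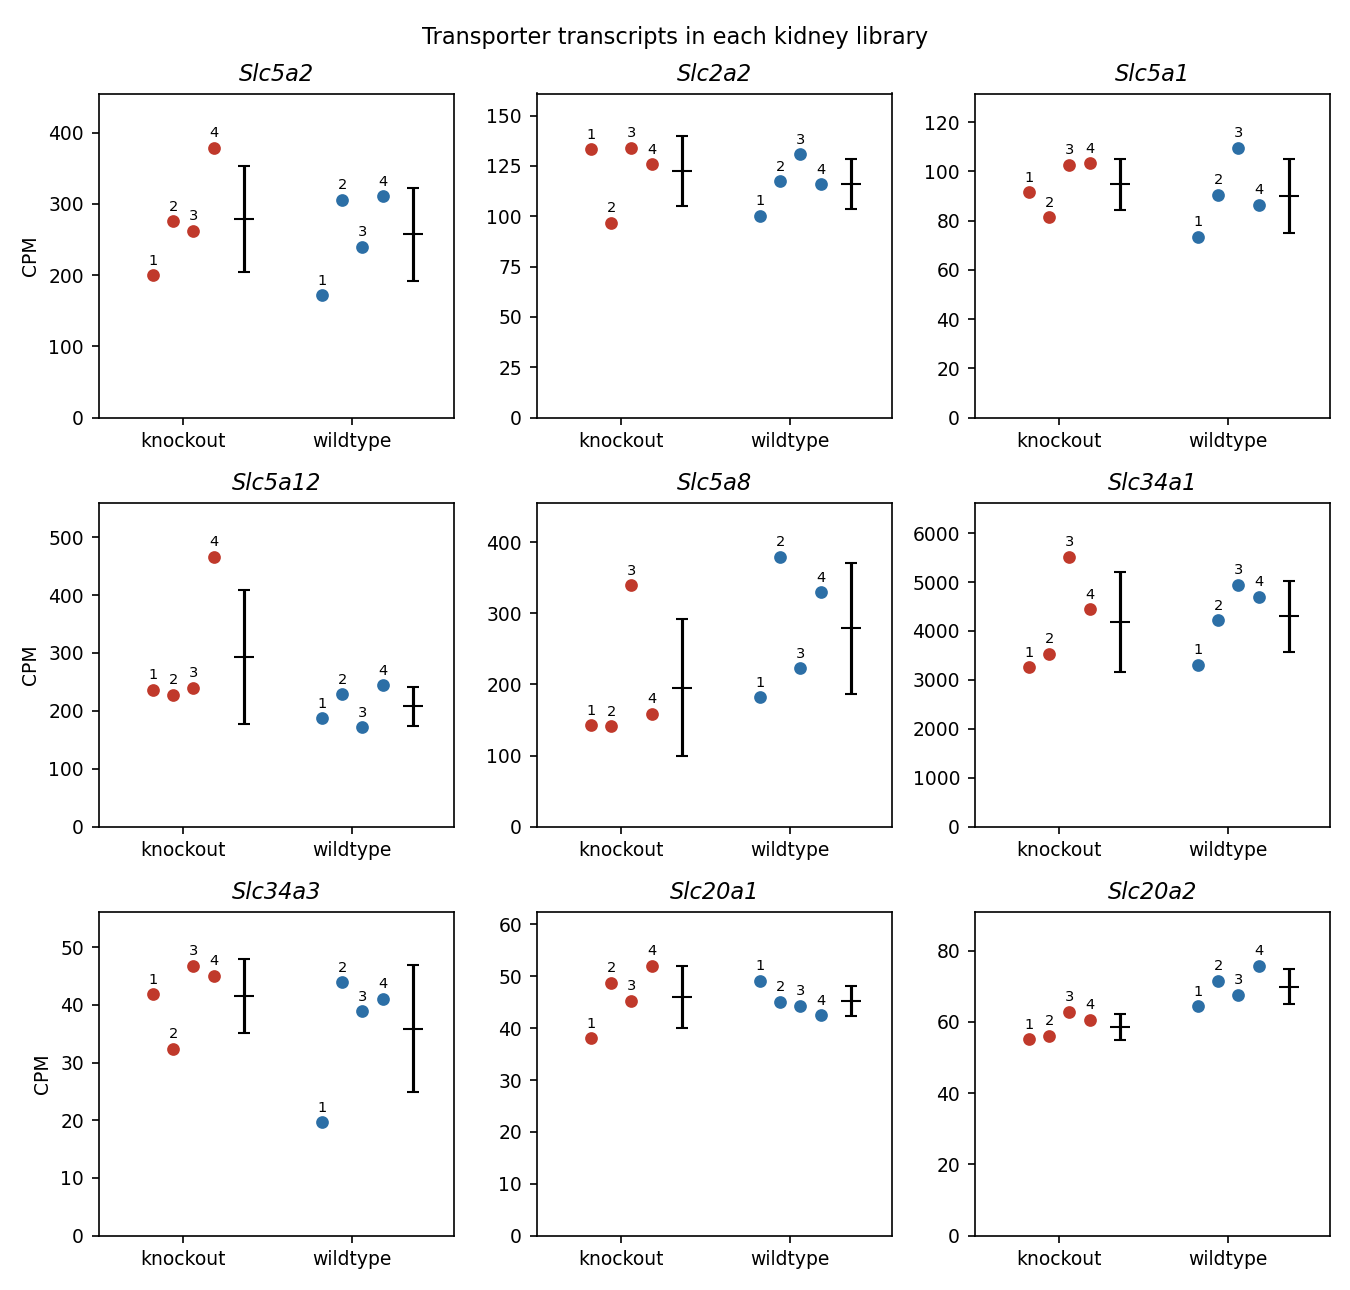
CPM of each transporter gene, with 1 numbered point per library (the replicate number of its label) and the mean ± SD beside each group of 4. Slc20a2 is the 1 gene whose groups do not overlap; knockout replicate 3 stands above its group for Slc5a8, and knockout replicate 4 for Slc5a12.

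**Figure D3:**
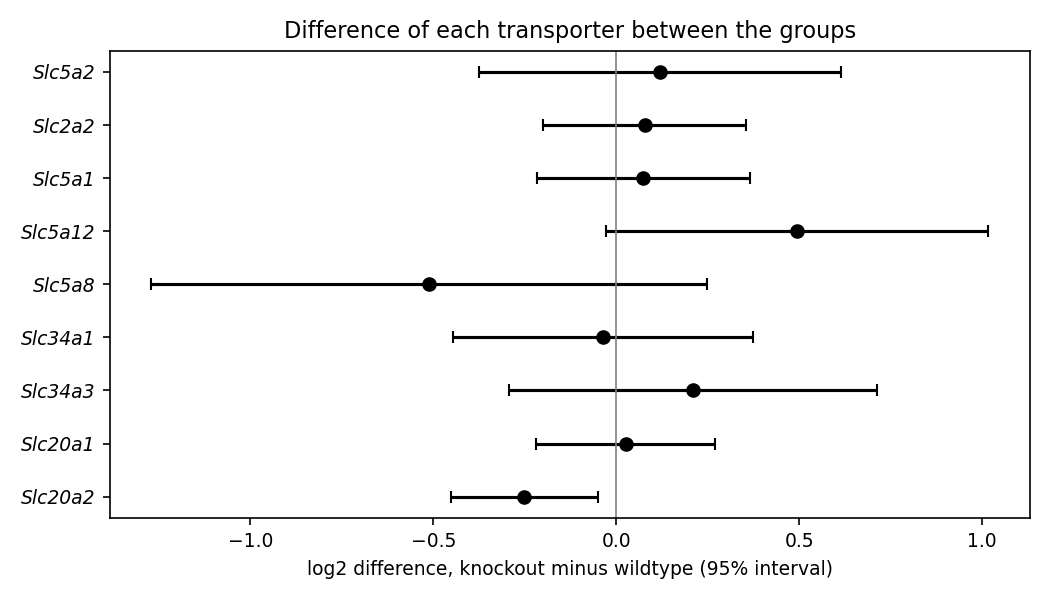
Log2 difference of each transporter gene, knockout minus wildtype by label, with the 95% interval from edgeR's quasi-likelihood fit. The interval of Slc20a2, at -0.45 to -0.051 before adjustment, is the 1 that does not include 0.

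Among the glucose carriers, the early brush border cotransporter SGLT2 varied widely within both groups. Slc5a2 (ENSMUSG00000030781, chromosome 7, 128265657 to 128272430 on GRCm38) had 200.2, 276, 262 and 379 CPM in knockout replicates 1 to 4, against 172, 306, 240.1 and 311 CPM in wildtype replicates 1 to 4. The highest library was labelled knockout and the lowest wildtype, and the groups overlapped over most of their range. A log2 difference of 0.12 was estimated (SE 0.22, 95% interval -0.38 to 0.61; edgeR adjusted p = 0.967), and its sign turned without knockout replicate 4 (-0.061), without wildtype replicate 1 (-0.028), without the 2 libraries high in adrenal transcripts (-0.019) and without the 2 high in heat-shock transcripts (-0.15). In GENCODE M21, 597 of its 2897 exon bases are shared with BC017158 on the opposite strand, and the authors counted without strand, so reads there cannot be told apart.

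The other 2 glucose carriers were much steadier. Slc2a2 (ENSMUSG00000027690, chromosome 3, 28697903 to 28731359) ranged from 96.8 to 134 CPM in knockout-labelled libraries and from 100.2 to 131 CPM in wildtype-labelled ones (log2 difference 0.077, SE 0.13, 95% interval -0.20 to 0.36; edgeR adjusted p = 0.961). Leaving out 1 library gave 0.015 (without wildtype replicate 1) to 0.17 (without knockout replicate 2). Without the 2 libraries high in heat-shock transcripts the difference was 0.20 (edgeR adjusted p = 0.755). Slc5a1 (ENSMUSG00000011034, chromosome 5, 33104219 to 33162870), the late cotransporter, had 91.6, 81.3, 103 and 103 CPM in knockout replicates 1 to 4, against 73.5, 90.5, 109.7 and 86.5 CPM in wildtype replicates 1 to 4. Its highest and lowest libraries both carried the wildtype label. Its log2 difference came to 0.073 (SE 0.13, 95% interval -0.22 to 0.36; edgeR adjusted p = 0.967). The coefficient of variation over 8 libraries was 13.2% for Slc5a1 and 12.2% for Slc2a2, close to the median of 12.6% over the 9489 tested genes with a mean of at least 10 CPM, and 24.5% for Slc5a2, which 10.5% of those genes exceeded. The difference of Slc5a1 was -0.010 without wildtype replicate 1 and 0.010 without the 2 libraries shifted in clock transcripts. Slc5a1 and Slc2a2 are also genes of the intestine, and Slc2a2 of the liver. Of the 4 intestinal markers read, Vil1, a brush border gene that the proximal tubule also expresses, was at 178 to 238 CPM in knockout-labelled libraries and 214 to 291 CPM in wildtype-labelled ones, and Apoa4 at 9.35 to 19.5 and 8.64 to 10.3 CPM. Sis had 0 counts in all 8 libraries, Fabp2 and the hepatic Cyp3a11 were at no more than 0.063 and 0.13 CPM, and the hepatic Alb at no more than 6.38 CPM. Ttr, also a liver gene, varied from 1.19 to 114 CPM in knockout-labelled libraries and from 0.75 to 71.9 CPM in wildtype-labelled ones, and its part in these values was not tested.

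The lactate carriers had the largest differences and the largest spread of the 9, in opposite directions. Slc5a12 (ENSMUSG00000041644, chromosome 2, 110597298 to 110647779), the early carrier, had 237, 228, 240.3 and 467 CPM in knockout replicates 1 to 4, against 187, 228, 172 and 244 CPM in wildtype replicates 1 to 4. A single library, knockout replicate 4, stood far above the rest, and the groups overlapped without it. The estimate was 0.49 on the log2 scale (SE 0.23, 95% interval -0.027 to 1.02; edgeR adjusted p = 0.957), and 0.18 without knockout replicate 4 (edgeR adjusted p = 0.900). It was 0.20 without the 2 libraries high in heat-shock transcripts and 0.26 without the 2 shifted in clock transcripts. The first of these settings keeps 2 libraries labelled knockout and 4 labelled wildtype. Both settings leave out knockout replicate 4. That library was also the highest in Arntl and Hspa1b, and its summed injury markers (Havcr1, Lcn2, Spp1 and Krt20) came to 1188 CPM, where the other libraries labelled knockout had 495 to 995 CPM and those labelled wildtype 405 to 658 CPM; their part in the result was not tested.

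Slc5a8 (ENSMUSG00000020062, chromosome 10, 88885992 to 88929515), the late carrier, had 142, 142, 339 and 159 CPM in knockout replicates 1 to 4, against 182, 379.6, 223 and 329 CPM in wildtype replicates 1 to 4. Knockout replicates 1, 2 and 4 lay below every wildtype library, and knockout replicate 3 lay above 3 of them. The estimate was -0.51 on the log2 scale (SE 0.34, 95% interval -1.27 to 0.25; edgeR adjusted p = 0.957), and without knockout replicate 3 it was -0.92 (edgeR adjusted p = 0.351). Without the 2 libraries high in heat-shock transcripts it was -0.21 and without the 2 shifted in clock transcripts -0.33. Its coefficient of variation of 41.2% was exceeded by 2.19% of the genes compared, and that of Slc5a12, 36.4%, by 3.18%.

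Of the brush border phosphate carriers, NaPi-IIa differed little between the groups. Slc34a1 (ENSMUSG00000021490, chromosome 13, 55398187 to 55415592) had 3258, 3539, 5521 and 4439 CPM in knockout replicates 1 to 4, against 3313, 4222, 4946 and 4704 CPM in wildtype replicates 1 to 4. Knockout replicates 1 and 2 and wildtype replicate 1 formed the low end, and the groups overlapped throughout. Those libraries also had the largest shares of counts outside genes, at 16.2%, 14.5% and 14.4%, and the others had 11.6% to 13.7%. The part of that share in these levels was not tested. The log2 difference of Slc34a1 came to -0.036 (SE 0.18, 95% interval -0.45 to 0.37, edgeR adjusted p = 0.990). The sign turned when knockout replicate 1 or 2 or wildtype replicate 3 or 4 was left out, and without the 2 libraries high in heat-shock transcripts (0.031). Without knockout replicate 1, the library high in red cell transcripts, it was 0.067. Pfn3, on the opposite strand, shares 545 of its 4676 exon bases.

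Slc34a3 (ENSMUSG00000006469, chromosome 2, 25228898 to 25234364), for NaPi-IIc, had 41.8, 32.4, 46.8 and 45.0 CPM in knockout replicates 1 to 4, against 19.7, 43.9, 38.9 and 41.1 CPM in wildtype replicates 1 to 4. Wildtype replicate 1 had fewer than any other library, with 289 counts where the others had 508 to 701. This is one of the pair with adrenal transcripts, and the other, knockout replicate 2, was the next lowest. A log2 difference of 0.21 was estimated (SE 0.23, 95% interval -0.29 to 0.71; edgeR adjusted p = 0.957), and it came to 0.0093 without wildtype replicate 1 and 0.11 without both adrenal libraries. The summed adrenal markers were at 911 CPM in knockout replicate 2 and 880.2 CPM in wildtype replicate 1, and the other 6 libraries had no more than 11.4 CPM; their part in the value of Slc34a3 was not tested.

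The ubiquitous carrier PiT-2 was the 1 member whose groups did not overlap. Slc20a2 (ENSMUSG00000037656, chromosome 8, 22476788 to 22569612) had 55.1, 56.1, 62.9 and 60.6 CPM in knockout replicates 1 to 4, against 64.4, 71.6, 67.7 and 75.8 CPM in wildtype replicates 1 to 4. Every library labelled knockout lay below every library labelled wildtype, the nearest pair being knockout replicate 3 and wildtype replicate 1. On the log2 scale it differed by -0.25 (SE 0.091, 95% interval -0.45 to -0.051; edgeR unadjusted p = 0.0187, edgeR adjusted p = 0.957). Groups without overlap and lower in knockout-labelled libraries were found for 0.942% of all tested genes, those higher for 1.03%, and those without overlap in either direction for 1.97%. The difference stayed between -0.29 and -0.21 in all 18 alternatives. Unadjusted p by edgeR, DESeq2 or limma-voom ran from 0.0129 to 0.0760, and adjusted p from 0.475 to 1.00. The difference was -0.22 without knockout replicate 1, the lowest library for this gene.

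PiT-1 did not share this pattern. Slc20a1 (ENSMUSG00000027397, chromosome 2, 129198764 to 129211616) ranged from 38.1 to 52.1 CPM in knockout-labelled libraries and from 42.4 to 49.1 CPM in wildtype-labelled ones (log2 difference 0.025, SE 0.11, 95% interval -0.22 to 0.27; edgeR adjusted p = 0.986), with a sign that turned in 5 alternatives. The difference between PiT-2 and PiT-1 in their response to the label was not tested. The transcript 9830144P21Rik shares 452 of the 5580 exon bases of Slc20a1, and Smim19 shares 95 of the 6216 of Slc20a2, both on the opposite strand. The coefficients of variation over 8 libraries were 9.55% for Slc20a1, 11.2% for Slc20a2, 19.3% for Slc34a1 and 22.9% for Slc34a3.

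The balance of early and late carriers was compared as a log2 ratio of 2 genes' counts within each library, which does not depend on library size. For SGLT2 over SGLT1 it was 1.13, 1.76, 1.35 and 1.87 in knockout replicates 1 to 4, against 1.23, 1.76, 1.13 and 1.84 in wildtype replicates 1 to 4. The values lay in a lower range of 1.13 to 1.35 and an upper range of 1.76 to 1.87, and each label had 2 libraries in both ranges. The means differed by 0.039 (exact permutation test over 70 arrangements, two-sided, p = 0.743, adjusted p = 0.886 over the 4 ratios). For GLUT2 over SGLT1 the difference was -0.010 (exact permutation p = 0.886, adjusted p = 0.886).

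For SMCT2 over SMCT1, the ratio was 0.73, 0.69, -0.50 and 1.55 in knockout replicates 1 to 4, against 0.039, -0.73, -0.37 and -0.43 in wildtype replicates 1 to 4. Of the libraries labelled knockout, 3 had more of the early carrier than any library labelled wildtype, and knockout replicate 3 lay among the wildtype values. The means were 0.62 ± 0.84 and -0.37 ± 0.32 (SD, n = 4 each), a difference of 0.99 (exact permutation test, two-sided, p = 0.114, adjusted p = 0.457). The difference was 0.68 without knockout replicate 4 and 0.49 without the 2 libraries high in heat-shock transcripts. NaPi-IIa over NaPi-IIc is a ratio of 2 early carriers, and its means were 6.64 ± 0.26 and 6.95 ± 0.34. The difference of -0.31 (exact permutation p = 0.229, adjusted p = 0.457) came to -0.17 without wildtype replicate 1 and -0.19 without knockout replicate 1. The smallest p that this test allows is 0.0286.

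**Figure D4:**
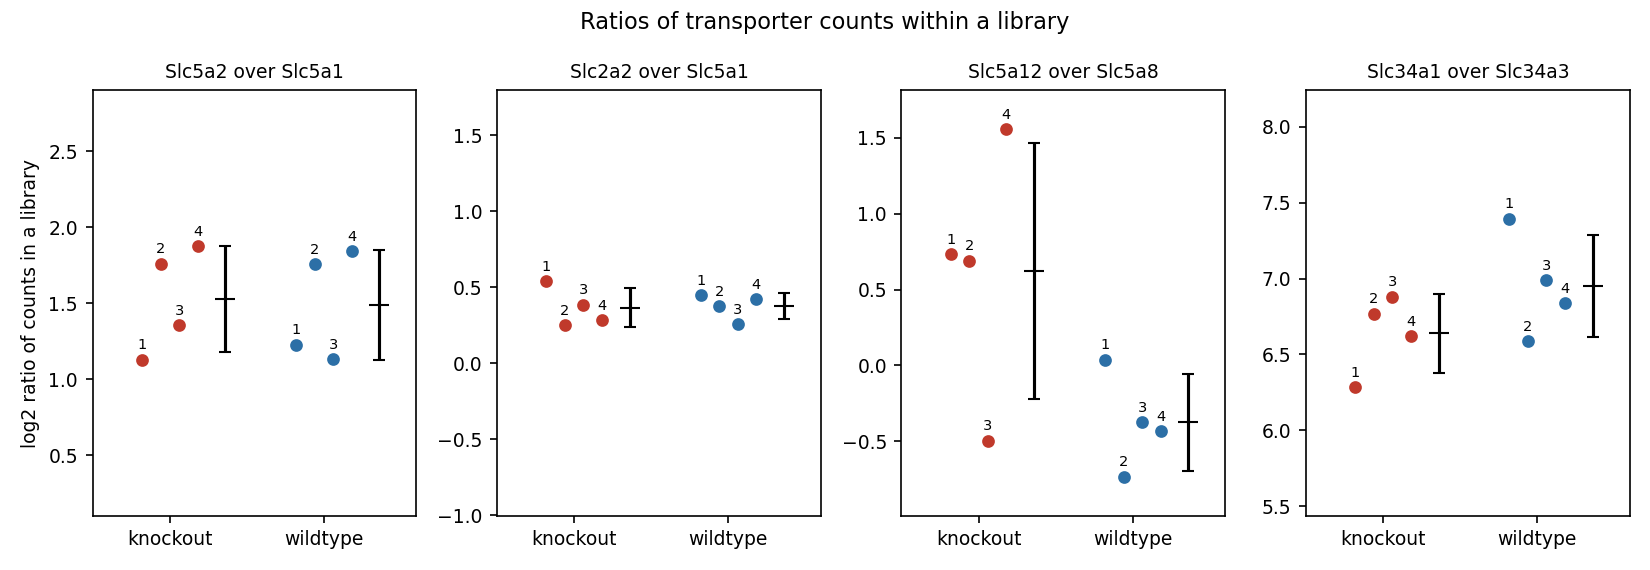
Log2 ratio of counts within each library for 4 pairs of carriers, with numbered points for replicates and the mean ± SD beside each group of 4; every panel spans the same range of log2 units. The ratio of Slc5a12 to Slc5a8 has knockout replicates 1, 2 and 4 above all libraries labelled wildtype, and the ratio of Slc5a2 to Slc5a1 lies in a lower and an upper range in both groups.

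As a description over the members, the mean log2 CPM of the 5 early genes (Slc5a2, Slc2a2, Slc5a12, Slc34a1 and Slc34a3) minus that of the 2 late genes (Slc5a1 and Slc5a8) was 1.09, 1.12, 0.66 and 1.402 in knockout replicates 1 to 4, against 0.67, 0.56, 0.70 and 0.73 in wildtype replicates 1 to 4. Knockout replicate 3 lay inside the wildtype range and the other libraries labelled knockout above it. The means were 1.07 ± 0.31 and 0.66 ± 0.073, and the difference of 0.41 came to 0.21 without the 2 libraries high in heat-shock transcripts. In the edgeR fit, the late Slc5a8 differed by -0.51 and the late Slc5a1 by 0.073. Of the early genes, Slc5a12 differed by 0.49 and the others by -0.036 (Slc34a1) to 0.21 (Slc34a3). The score therefore rests largely on the lactate pair.

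Segment markers outside the 9 genes were read beside this balance. Among 5 early proximal markers, 4 differences were positive, and 2 had an unadjusted p under 0.05 as higher (2.17% of all tested genes). The median was 0.15, with Slc7a8 and Gatm each at 0.15, Slc6a19 at 0.41 and Slc4a4 at -0.027. Slc7a7, an amino acid exchanger of the basolateral side, had 283, 199, 184 and 345 CPM in knockout replicates 1 to 4, against 147, 113, 149.8 and 191 CPM in wildtype replicates 1 to 4 (log2 difference 0.75, SE 0.22, edgeR adjusted p = 0.957). Among 6 late markers 4 differences were negative, with a median of -0.085. They were -0.54 for Slc7a13, -0.37 for Slc22a7, -0.17 for Slc3a1 and -0.00055 for Cyp7b1, against 0.0085 for Slc6a18 and 0.041 for Slc22a13. Slc7a13, which carries amino acids in the straight part, had an unadjusted p under 0.05 as lower (1.84% of all tested genes). It had 827, 1067, 1412 and 1074 CPM in knockout replicates 1 to 4, against 1347, 1724, 1573 and 1709 CPM in wildtype replicates 1 to 4. Knockout replicate 3 was the library labelled knockout nearest to the wildtype values for both Slc7a7 and Slc7a13. Among the 6 markers of the whole proximal tubule 1 difference was positive and 5 negative. Their median was -0.16, beside 0.0061 over all tested genes. The summed early markers ran from 2007 to 3240 CPM in knockout-labelled libraries and from 1839 to 2609 CPM in wildtype-labelled ones, the summed late markers from 3011 to 4387 and from 3711 to 4783 CPM, and markers of the whole proximal tubule from 7811 to 9366 and from 8577 to 10587 CPM. These sums overlapped between the groups, no marker was called, and their part in the balance of carriers was not tested.

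**Figure D5:**
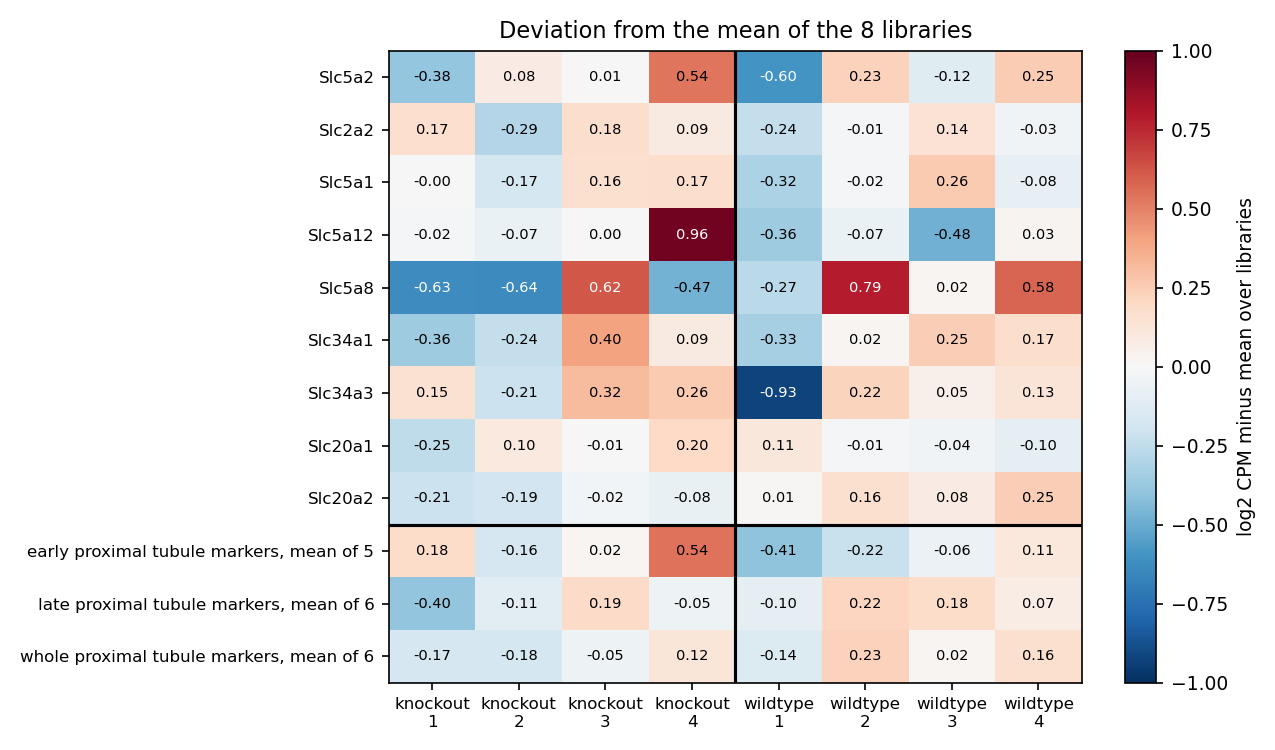
Log2 CPM of each transporter gene, and the mean log2 CPM of 3 lists of proximal markers, minus the mean over the 8 libraries; columns are libraries, those labelled knockout left of the line. Slc5a8 is high in knockout replicate 3 and wildtype replicates 2 and 4, Slc5a12 is high in knockout replicate 4, and Slc34a3 is low in wildtype replicate 1.

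Over the 8 libraries, the members did not move as a single block. Pearson correlations of log2 CPM, given as a description over 8 libraries, were 0.86 for Slc5a1 with Slc2a2, 0.77 for Slc5a1 with Slc34a3 and 0.71 for Slc5a2 with Slc5a12, but 0.44 for Slc5a2 with Slc5a1 and -0.19 for Slc5a12 with Slc5a8. Slc5a8 ran closest to Slc20a2, at 0.82. The tested genes most like Slc5a2 were Exoc6b (0.97), Nid2 (0.96) and Kctd10 (0.96), and those most like Slc5a1 were Fbxl17 (0.97), Rwdd2b (0.96) and Taf2 (0.93). Slc34a1 was most like Pomk, Mapk9 and Tmem231 (0.97, 0.97 and 0.96), and Slc34a3 most like Bpnt1, Tirap and Podxl (0.95, 0.94 and 0.94). These are the highest values among 9489 genes over 8 libraries that share tissue composition and depth, and no function follows from them.

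Other genes of hexose handling mostly had positive differences, and none was called. Of 15 genes on this list 14 were tested, 12 differences were positive and 2 negative, 0 were called, and the median was 0.19, beside 0.0061 over all tested genes, of which 51.3% were positive. Pdzk1ip1, whose protein MAP17 is needed for SGLT2 activity, was at 492 ± 80.0 CPM in knockout-labelled libraries and 389 ± 40.7 CPM in wildtype-labelled ones (log2 difference 0.34, SE 0.13, edgeR adjusted p = 0.957). Slc5a3, a myo-inositol cotransporter, was at 313 ± 81.1 and 231 ± 49.6 CPM, and Slc2a8, an intracellular sugar carrier, at 19.9 ± 2.25 and 16.3 ± 3.02 CPM. Khk, for the ketohexokinase that phosphorylates fructose, was the most abundant per length, at 655 ± 96.4 and 682 ± 80.0 CPM in knockout-labelled and wildtype-labelled libraries. None of these 4 separated the groups.

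Genes of phosphate handling mostly had negative differences, and none was called. Of 16 genes 15 were tested (Phex was too low), 5 differences were positive and 10 negative, 0 were called, and the median was -0.11. Over all tested genes the median was 0.0061, and 51.3% of differences were positive. The edgeR unadjusted p was under 0.05 for 2 genes of the list as higher and 0 as lower. Of all tested genes, 2.17% and 1.84% were. Slc9a3r2, for a scaffold protein, was at 51.9 ± 4.21 CPM in knockout-labelled libraries and 41.9 ± 3.41 CPM in wildtype-labelled ones (log2 difference 0.31, SE 0.098, edgeR adjusted p = 0.957). The scaffold genes Pdzk1 and Slc9a3r1 on the same list went the other way. Their log2 differences were -0.24 (SE 0.16) and -0.20 (SE 0.11), each with an edgeR adjusted p of 0.957. Cyp27b1, which makes active vitamin D, had 2.79, 3.51, 2.00 and 8.55 CPM in knockout replicates 1 to 4, against 2.38, 1.19, 1.39 and 1.94 CPM in wildtype replicates 1 to 4 (log2 difference 1.29, SE 0.44, edgeR adjusted p = 0.957). Stc1, a secreted regulator of calcium and phosphate, reached 22.2 CPM in knockout replicate 4 with 2.25 to 7.87 CPM in all other libraries (log2 difference 1.15, SE 0.54, edgeR adjusted p = 0.957). Both were highest in knockout replicate 4, the library that also led for Slc5a12 and Slc5a2. Pth1r, the parathyroid hormone receptor, was at 565 ± 117 and 679 ± 132 CPM in knockout-labelled and wildtype-labelled libraries (log2 difference -0.26, SE 0.18, edgeR adjusted p = 0.957).

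Among 9 genes of monocarboxylate handling 7 differences were positive and 2 negative, 0 were called, and the median was 0.13. The 2 negative ones had the lowest p: Ldhd, a mitochondrial D-lactate dehydrogenase, was at 1872 ± 298 CPM in knockout-labelled libraries and 2473 ± 461 CPM in wildtype-labelled ones (log2 difference -0.40, SE 0.16, edgeR adjusted p = 0.957), and Slc16a4 at 137 ± 15.5 and 167 ± 17.3 CPM (log2 difference -0.28, SE 0.11, edgeR adjusted p = 0.957). Slc16a3, a lactate exporter of glycolytic cells, was near the floor at 0.67 to 1.90 and 0.13 to 1.43 CPM. Ldhb, for the lactate dehydrogenase subunit typical of oxidative tissue, was the most abundant per length, at 799 ± 108 and 731 ± 21.4 CPM.

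The proximal transcription factors that act on these genes were not called either. Of 7 tested, 2 differences were positive and 5 negative, with a median of -0.12. Maf, whose product is a transcription factor of the basic leucine zipper class, ranged from 341 to 414 CPM in knockout-labelled libraries and from 277 to 346 CPM in wildtype-labelled ones (log2 difference 0.30, SE 0.11, edgeR adjusted p = 0.957). Hnf4a, a nuclear receptor of the proximal tubule and the most abundant of the list per length, was at 836 ± 156 and 955 ± 174 CPM in the 4 knockout-labelled and 4 wildtype-labelled libraries. The groups overlapped for both genes.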

How the data were processed

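RNA from 8 whole mouse kidneys was analysed, 4 labelled knockout and 4 labelled wildtype, grouped by their titles. Raw counts, whole numbers of reads assigned to a gene, were deposited by the authors, who used STAR and HTSeq on mm9 per the submitters' processing notes. Tool versions and the annotation: not given in the sources used here. The kit was directional, per the labels' protocols, but reads were counted without regard to strand, per the deposited files' own names. Lines that name no gene were left out of library sizes: these took 11.6% to 16.2% (outside genes), 2.05% to 2.31% (ambiguous) and 15.8% to 20.9% (not unique) of all counts. Symbols, positions and exon lengths come from GENCODE M21 (GRCm38), matched by Ensembl identifier for 32860 of 37583 genes, with no conversion from mm9. Promoter sequences are from RefSeq on GRCm38.p6.

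Counts were tested with edgeR 4.0.16 in R 4.3.3 (quasi-likelihood, TMM, default filterByExpr with minimum count 10 and minimum total 15), two-sided, with genotype as the only term, Benjamini-Hochberg adjustment over 14433 genes and a threshold of 0.05. Ratios of 2 genes use counts plus 0.5, and mean log2 CPM a prior count of 2. With 3 counts as the floor, a count of 0 allows at most 0.223 CPM, for counting error only, since PCR copies are counted as reads. For the 28 pairs of libraries, the chi-square per gene was 10.8 to 85.5 where 1 is sampling noise, and none was a copy of another. The fit was tested on simulated data. Alternatives were other scaling (RLE, total counts), filters, DESeq2 1.42.0, limma-voom 3.58.1, a replicate block and libraries left out. Leaving out the adrenal, heat-shock and clock-shifted libraries was chosen after seeing the data. The heat-shock setting leaves out knockout replicates 2 and 4, and the clock setting replicate 4 of each label. The heat-shock setting thus keeps 2 libraries labelled knockout and 4 labelled wildtype. The members and gene lists were chosen with earlier results of these data known. Named besides the members are, from each list, the 3 genes with the lowest p and the most abundant per length. Also named are the 3 genes most like each of 4 members, the targeted genes, Pdzk1 and Slc9a3r1 beside Slc9a3r2, and markers as levels beside a result. Some results that this rule takes are not reported here.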

Additional observations from a re-analysis of the deposited data

Results flagged for a closer look

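Among 28 groups of 4 libraries checked, 2 had 1 library far from the others, and chance alone gives about 1 in 20. Slc5a8, for the late lactate carrier SMCT1, was at 339 CPM in knockout replicate 3, while the other knockout-labelled libraries lay at 142 to 159 CPM. The gap to the next library was 0.91 of the group's range, above the critical value of Dixon's test. Slc5a12, for the early lactate carrier SMCT2, was at 467 CPM in knockout replicate 4, while the other knockout-labelled libraries lay at 228 to 240.3 CPM, a gap of 0.95 of the range.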

How the results depend on the processing

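Of 267 values recomputed under alternatives, 234 kept their direction and call, 28 changed sign and 5 counts of called genes moved. No member was called under any of the 18 alternatives to the edgeR fit. Against 0 genes called over all genes, DESeq2 called 4, the fit without the heat-shock libraries 1, and fits without 1 library 0 to 2. The signs of small differences turned. Leaving out 1 library gave -0.20 to 0.067 for Slc34a1, -0.037 to 0.11 for Slc20a1, -0.061 to 0.25 for Slc5a2 and -0.010 to 0.18 for Slc5a1, and for the log2 ratios -0.081 to 0.17 (Slc5a2 over Slc5a1) and -0.068 to 0.028 (Slc2a2 over Slc5a1). Without the heat-shock libraries the values were 0.031 for Slc34a1, -0.12 for Slc20a1, -0.15 for Slc5a2, -0.25 for Slc5a2 over Slc5a1 and 0.088 for Slc2a2 over Slc5a1. Without the adrenal libraries they were -0.019 for Slc5a2, -0.13 for Slc5a2 over Slc5a1 and 0.052 for Slc2a2 over Slc5a1, and without the clock-shifted libraries -0.067 for Slc20a1 and 0.033 for Slc2a2 over Slc5a1. The cause was not tested. Same-numbered libraries of the 2 labels had correlations of 0.23, -0.23, 0.28 and 0.29, and differently numbered ones of -0.43 to 0.45. These values do not settle whether the numbers pair the libraries. With a replicate block, 0 genes were called, member differences kept their signs, and the Slc5a12 over Slc5a8 ratio differed by 0.99 (exact sign-flip p = 0.25, where the smallest possible is 0.125). With 4 libraries a group, intervals as wide as those of Slc5a8 and Slc5a12 limit what can be told.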

Other observations

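Markers of the nephron beyond the proximal tubule are given as values for comparison with the carriers. All 4 thick ascending limb markers had positive differences, with a median log2 difference of 0.25, and their sums were 6068 to 7777 CPM in knockout-labelled libraries and 5247 to 6439 CPM in wildtype-labelled ones. Slc12a1, the salt cotransporter blocked by loop diuretics, had 1971, 2382, 1685 and 2243 CPM in knockout replicates 1 to 4, against 1876, 1411, 1788 and 1615 CPM in wildtype replicates 1 to 4 (log2 difference 0.31, SE 0.14, edgeR adjusted p = 0.957). Of 5 distal tubule and collecting duct markers 4 differences were positive and 1 negative, with a median of 0.32, and their sums were 878 to 1364 CPM in knockout-labelled libraries and 919 to 1077 CPM in wildtype-labelled ones. Scnn1g, a subunit of the epithelial sodium channel, differed by 0.063 on the log2 scale, and Slc12a3, the thiazide-sensitive salt cotransporter, by -0.18. Aqp2, the water channel of the collecting duct and the marker of this list with the lowest p, had 683, 621, 241 and 763 CPM in knockout replicates 1 to 4, against 391, 291, 276 and 375 CPM in wildtype replicates 1 to 4 (log2 difference 0.79, SE 0.31, edgeR adjusted p = 0.957). Knockout replicate 3, the library labelled knockout in which Slc5a8 was high, had the lowest Aqp2 of all 8 libraries. Wildtype replicates 2 and 4, in which Slc5a8 was also high, had 291 and 375 CPM of Aqp2. These genes were chosen after their values were seen, and the groups overlapped for each of them.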
